A study of Mus musculus with 8 samples.

Results

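The nuclear genes for the subunits of the mitochondrial respiratory chain and ATP synthase were compared between Trim58-/- and Trim58+/+ mice with colitis. Members were the genes on the array whose annotated symbol begins with Ndufa, Ndufb, Ndufc, Ndufs, Ndufv, Uqcr or Atp5, those of the Cox4 to Cox8 families, the succinate dehydrogenase genes Sdha, Sdhb, Sdhc and Sdhd, and Cyc1. This gave 90 of 22180 genes tested, namely 32 of complex I, 4 of complex II, 8 of complex III, 10 common subunits of complex IV, 9 other isoforms and relatives of complex IV subunits, 17 of complex V, 8 complex I assembly factors that share the symbol stem, and 2 pseudogenes. The rule uses gene symbols, and per gene the probe set with the highest mean over the 8 arrays was kept. Probe sets annotated to several genes were left out, so Cox6c, Ndufb2, Ndufb4, Ndufs6 and Uqcr10 were not analysed here.

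RNA came from the middle colon of 8 female mice of the strain C57BL/6-Trim58tm2313Arte, 9 weeks old, 4 per genotype. Colitis was set off in both genotypes with 4% dextran sodium sulfate (DSS), a chemical irritant of the colon lining, given in the drinking water over 7 days. Plain water followed for 5 days, and day 12 was the day of sampling. Trim58, the gene of an E3 ubiquitin ligase with a tripartite motif, is absent from the whole animal in the knockout, and the wild type mice carry both copies. Each mouse gave 1 Affymetrix array, values are RMA signals on the log2 scale, and no untreated colon was compared.

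The respiratory chain sits in the inner mitochondrial membrane. Complex I (NADH dehydrogenase) and complex II (succinate dehydrogenase) pass electrons to ubiquinone, complex III hands them to cytochrome c, and complex IV (cytochrome c oxidase) gives them to oxygen. The proton gradient built on the way drives ATP synthase, complex V. Most subunits are encoded in the nucleus, a few in the mitochondrial genome, and colonocytes rely on this machinery to burn butyrate from the gut bacteria.

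The targeted gene did not separate the genotypes. Trim58 read 5.22, 5.07, 5.18 and 5.03 in wild type replicates 1 to 4 and 4.91, 5.37, 4.82 and 5.11 in knockout replicates 1 to 4, a log2 difference of -0.074 ± 0.12 (SE, adjusted p = 0.839 with limma, 0.6 in a two-sided exact permutation test). Its mean was 5.12 in wild type and 5.05 in knockout. Both lay under 5.53, the 95th percentile of the means of 1105 olfactory receptor genes, a stand-in for genes that are off. This probe set could thus show little of a loss and does not check the labels. Pancreatic enzyme genes were high in knockout replicates 1, 2 and 4 and at the wild type level in replicate 3: the median over 8 such genes lay 5.46, 6.56, 0.021 and 6.26 above the wild type mean on the log2 scale. Wild type replicate 4 stood apart in the respiratory genes themselves, being the highest of the 8 arrays in 56 of the 90 members and in 19.7% of all genes. Knockout replicate 2 was the lowest array in 31 members and in 17.0% of all genes, and wild type replicate 1 the lowest in 24 members and in 10.4% of all genes. Values for the members are therefore given by array.

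None of the 90 members passed the test across all genes, and most lay slightly lower in the knockout. With limma and Benjamini-Hochberg adjustment over all 22180 genes, 0 members were called lower and 0 higher at an adjusted p under 0.05, where 0.185% of all genes were called lower and 0.392% higher. At an unadjusted p under 0.05 the knockout was lower for 15 members (16.7%), against 8.10% of all genes, and higher for 1, the pseudogene Atp5c1-ps, against 6.22%. The difference was below 0 in 75 of 90 members, against 53.9% of all genes, with a median of -0.071 over the members and -0.014 over all genes on the log2 scale. In simulated data the same fit recovered only 1 of 50 genes with a shift of 0.25. The absence of calls therefore says little about differences this small.

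In 16 of the 90 members (17.8%) all 4 knockout values lay below all 4 wild type values, against 5.02% of all genes, and in 0 members they lay above, against 3.79%. These 16 separated members were Ndufa5, Ndufa6, Ndufa8, Ndufb3, Ndufc1 and Ndufc2 of complex I, Sdhc and Sdhd of complex II, Uqcrc2 and Uqcrh of complex III, Cox6a1 and Cox8a of complex IV, its muscle isoform Cox7a1, and Atp5d, Atp5g2 and Atp5h of complex V. Their knockout means were 1.12-fold to 1.49-fold below wild type, with limma adjusted p between 0.0951 and 0.356. The interval of the difference was narrow for most members: in 87 of 90 the 95% interval excluded a 1.5-fold lower level, and it reached that far only for Cox7a1, Ndufa7 and Ndufa8. In whole tissue, fewer cells rich in mitochondria and less RNA per cell cannot be told apart.

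Single arrays moved these counts. Without knockout replicate 2 the members lower at an unadjusted p fell in number from 15 to 6 (6.67%, against 5.57% of all genes), and without wild type replicate 4 and knockout replicate 2 together, a choice made after the data were seen, 3 were left (3.33%, against 5.53%). Repeating the quantile normalization over the tested genes left 8 separated members in place of 16 (8.89%, against 5.02% of all genes).

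**Figure D1:**
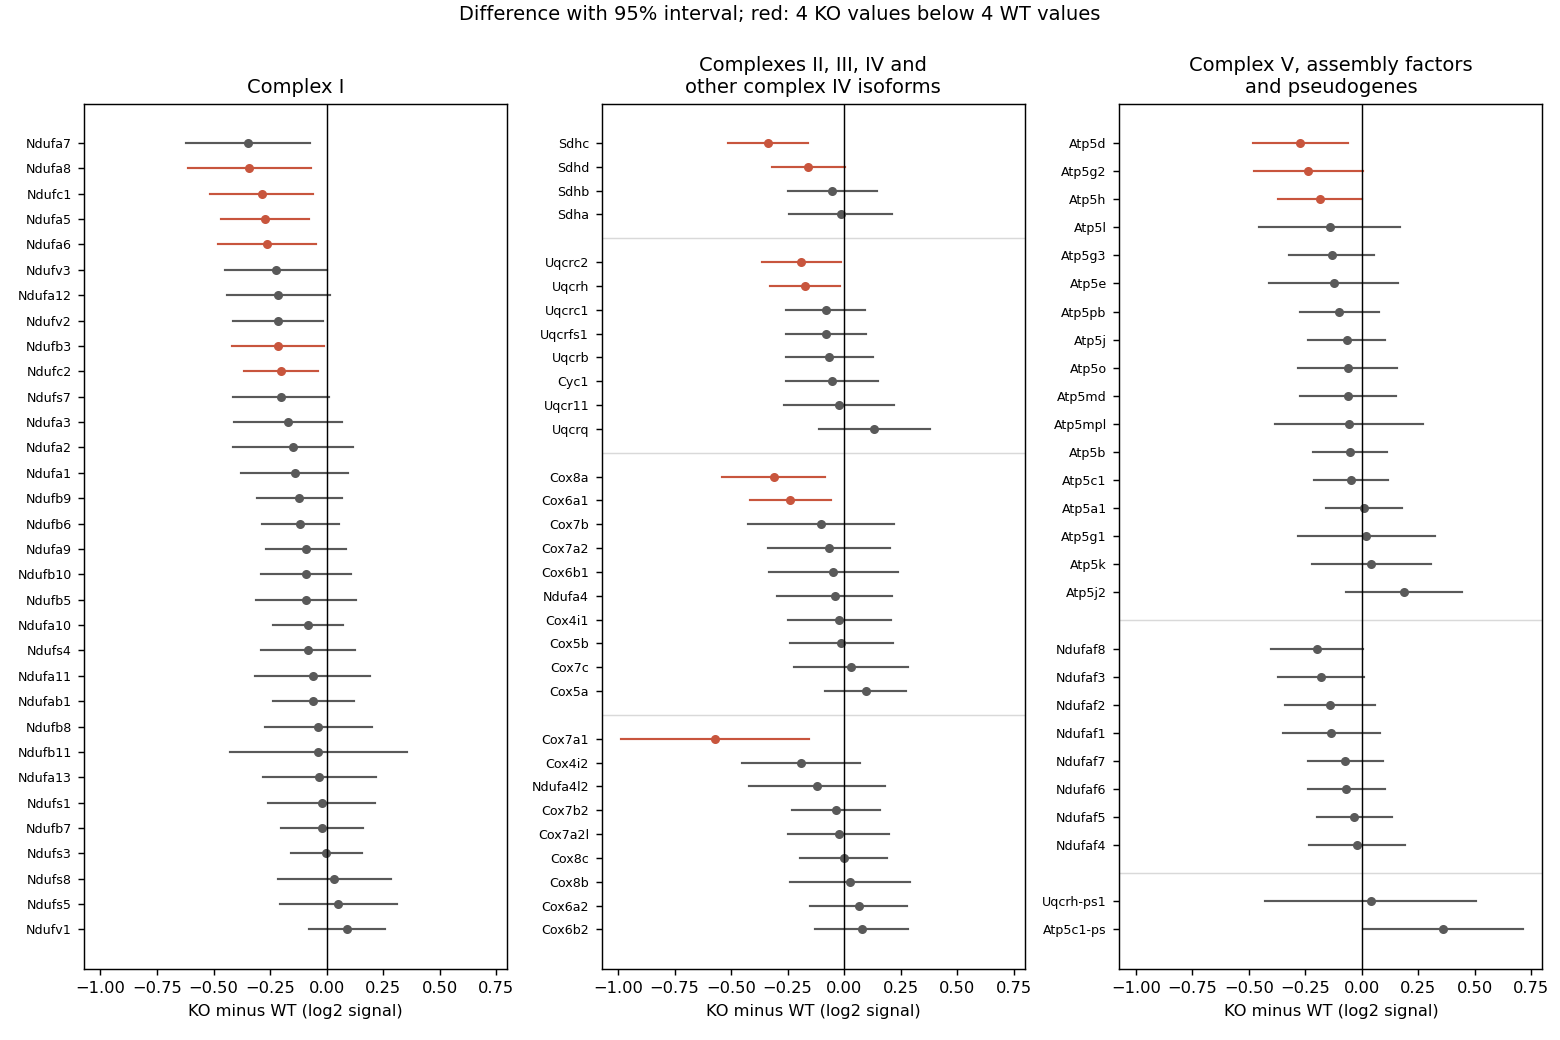
Knockout minus wild type difference on the log2 scale for each of the 90 members (points) with its 95% limma interval (lines), grouped by complex; n = 4 mice per genotype. Red marks the 16 members whose 4 knockout values all lie below the 4 wild type values. Most points lie left of 0, and the largest difference is that of Cox7a1 at -0.57.

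The upstream sequence of the members was examined because nuclear respiratory factor 1 (NRF-1), a transcription factor named for these genes, binds a palindrome-like GC-rich motif, and ETS factors such as GABP are a second known group of regulators. RefSeq start site windows (GRCm38.p6) matched 72 of the 90 members and 14 of the 16 separated ones, and the 250 bases before the start were searched on both strands. The NRF-1 core, searched as GCGCA and GCGC with 1 base of any kind between them, occurred in 11 of 72 members (15.3%), against 3.86% of 27025 genes with a window. It occurred in 6 of the 14 separated members (42.9%) and 5 of the other 58 (8.62%). The shorter form GCANGCGC, which is contained in it, occurred in 26.4% of members, 8.04% of all genes, 7 of 14 separated and 12 of 58 other members, so the contrast among members was smaller with it. With T as the free base it occurred in 6.94% of members and 0.781% of all genes, in 2 of 14 and 3 of 58.

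The motifs and this comparison were chosen after the values were seen, so the shares are a description. The matches of the 6 separated members are given with 20 bases on each side, 5′ to 3′ on the strand of the gene, with the match in capitals (GRCm38.p6, each stretch lying on the minus strand). They are the sequences behind the share of 6 in 14. That share rests on the probe sets kept: on a second, dimmer probe set the genotypes overlapped for Atp5h (difference -0.037) and Ndufa8 (-0.23). It also rests on the normalization: 8 members in place of 16 were separated after repeated quantile normalization, and motifs were not counted again in them.
Atp5g2, chr15:102671060-102671109: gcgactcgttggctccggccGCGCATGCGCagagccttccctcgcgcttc
Atp5h, chr11:115420031-115420080: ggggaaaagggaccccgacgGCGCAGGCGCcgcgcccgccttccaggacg
Cox6a1, chr5:115349091-115349140: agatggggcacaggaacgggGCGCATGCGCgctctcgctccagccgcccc
Cox6a1, chr5:115349046-115349095: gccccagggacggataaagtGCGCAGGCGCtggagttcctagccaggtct
Ndufa5, chr6:24527687-24527736: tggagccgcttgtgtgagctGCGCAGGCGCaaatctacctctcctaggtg
Ndufa8, chr2:36049339-36049388: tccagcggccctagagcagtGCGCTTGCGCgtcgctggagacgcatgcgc
Sdhd, chr9:50603899-50603948: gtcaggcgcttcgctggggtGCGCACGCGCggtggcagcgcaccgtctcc
Cox6a1 had 2 matches, and every match lay between 21 and 190 bases before the annotated start. The same letters occurred 3 times upstream of Sdha, whose genotypes overlapped (difference -0.015). One of these matches, again on the minus strand, is shown for comparison.
Sdha, chr13:74350309-74350358: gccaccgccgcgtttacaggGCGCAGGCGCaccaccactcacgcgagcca
The other 4 members with a match and overlapping genotypes were Atp5k, Ndufa11, Ndufaf4 and Ndufs5, with differences of 0.041, -0.061, -0.022 and 0.051. The ETS core CCGGAAG occurred in 18.1% of members and 7.05% of all genes, in 4 of 14 separated members and 9 of 58 others. The Sp1 letters GGGCGG were in 41.7% of members and 32.9% of all genes (3 of 14 and 27 of 58), CCAAT in 41.7% and 34.5% (8 of 14 and 22 of 58), and TATAAA in 9.72% and 13.0% (0 of 14 and 7 of 58). The YY1 letters AAGATGGC were in 0 of 72 members and 1.59% of all genes within the 250 bases before the start. Bases after the start were not searched. A match is not evidence of binding, and Sdhc, the member with the smallest p, had no window among the sequences used here.

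Complex I oxidises NADH and is the largest of the complexes. Of its 32 measured subunits 29 had a difference below 0 (90.6%), with a median of -0.10 on the log2 scale. In this complex 8 were lower (25%) and 0 higher at an unadjusted p under 0.05, and 6 were separated (18.75%). Over all genes 53.9% were below 0, 8.10% were lower at an unadjusted p and 5.02% were separated. The 6 measured core subunits, which are conserved from bacteria and make up the matrix part of the catalytic core, had a median of -0.011 with 0 separated: Ndufv1 lay at 0.091, Ndufs8 at 0.034, Ndufs3 at -0.00068, Ndufs1 at -0.021, Ndufs7 at -0.20 and Ndufv2 at -0.21. The 26 accessory subunits, which surround that core, had a median of -0.12, and all 6 separated members of complex I were among them. This division into core and accessory subunits was made after the data were seen, and the difference between them was not tested.

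Ndufa5, an accessory subunit of the matrix arm and one of the genes with the NRF-1 letters printed above, had the smallest p of complex I. It read 7.64, 7.55, 7.64 and 7.52 in wild type replicates 1 to 4 and 7.48, 7.16, 7.39 and 7.24 in the knockouts, so that knockout replicate 1 lay just under wild type replicate 4. The means were 7.59 ± 0.062 and 7.32 ± 0.14 (SD, n = 4 each), a difference of -0.27 ± 0.088 (SE, limma adjusted p = 0.183). Ndufa8, a membrane arm subunit with paired cysteines, read 9.90, 10.08, 9.88 and 10.37 against 9.63, 9.54, 9.85 and 9.83. Its groups were separated by a narrow gap, wild type replicate 4 was far above the others, and the difference was -0.34 (limma adjusted p = 0.228). Ndufa7, a matrix arm subunit, had the most negative difference of the complex at -0.35 (limma adjusted p = 0.225), with values of 7.69, 7.89, 7.99 and 8.25 against 7.69, 7.40, 7.66 and 7.70. In Ndufa7 the genotypes overlapped, since wild type replicate 1 lay at the level of the knockouts, and the difference was -0.25 without wild type replicate 4. The separated subunits Ndufc1, Ndufa6, Ndufb3 and Ndufc2 had differences of -0.29, -0.26, -0.21 and -0.20.

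Complex II links the citric acid cycle to the chain and is the only complex without a subunit from the mitochondrial genome. Of its 4 genes 2 were separated (50%, against 5.02% of all genes), the membrane anchors Sdhc and Sdhd, while the catalytic subunits Sdha and Sdhb overlapped. Only 1, Sdhc, was lower at an unadjusted p under 0.05 (25%, against 8.10% of all genes). Sdhc had the smallest p of all 90 members. It read 9.46, 9.44, 9.41 and 9.55 in wild type replicates 1 to 4 and 9.20, 8.97, 9.20 and 9.13 in the knockouts, with a clear gap between the groups. The means were 9.46 ± 0.060 and 9.13 ± 0.11 (SD, n = 4 each), a 1.26-fold lower level with a log2 difference of -0.34 ± 0.080 (SE, limma adjusted p = 0.0951). This member missed the adjusted threshold in every fit run, and its difference stayed between -0.36 and -0.29 when single arrays were left out.

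Sdhd, the other anchor of the ubiquinone site, read 10.17, 10.17, 10.20 and 10.26 in wild type and 10.13, 9.94, 10.06 and 10.02 in knockout (log2). All 4 knockouts lay below the wild type mice, knockout replicate 1 only just. The difference was -0.16 (95% interval -0.32 to 0.0021, limma adjusted p = 0.354). Sdha, the flavoprotein that oxidises succinate, read 11.01, 10.96, 11.11 and 10.68 against 11.03, 10.84, 10.99 and 10.84 and overlapped fully, with a difference of -0.015 and a 95% interval of -0.24 to 0.21, a sign that turned under repeated quantile normalization (0.00596). Sdhb, the iron-sulfur subunit, had a difference of -0.053 (95% interval -0.25 to 0.14). The division into anchors and catalytic subunits was not planned before the data were seen. Whether they differed in their response was not tested.

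Complex III moves electrons from ubiquinol to cytochrome c. Of its 8 measured genes 7 had a difference below 0 (median -0.073). In this complex 2 were lower at an unadjusted p under 0.05 (25%, against 8.10% of all genes), and the same number were separated (25%, against 5.02%). Uqcrh, the hinge subunit that helps bind cytochrome c1, read 8.81, 8.88, 8.88 and 8.87 in wild type and 8.75, 8.63, 8.72 and 8.63 in knockout. Knockout replicate 1 lay just under wild type replicate 1, and the difference was -0.18 (limma adjusted p = 0.285). Uqcrc2, a core protein of the matrix side, was at 10.69, 10.75, 10.75 and 10.66 against 10.59, 10.37, 10.62 and 10.53, a difference of -0.19 (limma adjusted p = 0.313). The redox-active subunits of the nuclear set, the Rieske protein gene Uqcrfs1 and the cytochrome c1 gene Cyc1, had differences of -0.080 and -0.055 and overlapped between genotypes. Uqcrq, a small ubiquinone-binding subunit, was the only gene of the complex above 0, at 0.13 (limma adjusted p = 0.653).

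Complex IV reduces oxygen. Among its 10 common nuclear subunits the 2 separated genes Cox8a and Cox6a1 (20%, against 5.02% of all genes) were also the 2 lower at an unadjusted p under 0.05 (20%, against 8.10%). Of the 10 subunits 8 were below 0, and the median difference was -0.045. This median turned above 0 without wild type replicate 4 (0.055), without that array and knockout replicate 2 (0.067), with array weights (0.0063), with the pancreatic covariate (0.031) and with knockout replicate 3 alone against wild type (0.022). Cox8a, a small structural subunit, read 11.39, 11.31, 11.30 and 11.65 in wild type and 11.00, 11.01, 11.27 and 11.13 in knockout. Knockout replicate 3 lay just under wild type replicate 3, and the means of 11.42 ± 0.16 and 11.10 ± 0.13 (SD, n = 4 each) differed by -0.31 ± 0.10 (SE, limma adjusted p = 0.187). Cox6a1, the non-muscle form of a regulatory subunit, read 12.79, 12.80, 12.64 and 12.91 against 12.51, 12.49, 12.62 and 12.56 and differed by -0.24 (limma adjusted p = 0.202).

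The other common subunits of complex IV overlapped. Cox4i1, the larger regulatory subunit, read 9.67, 9.83, 9.81 and 10.10 against 9.88, 9.90, 9.87 and 9.66, a difference of -0.021 with a 95% interval of -0.25 to 0.21. In that gene the wild type mice alone spanned more than the knockouts, from 9.67 in replicate 1 to 10.10 in replicate 4. Cox5a, a subunit facing the matrix, had the highest difference of the complex at 0.10, Cox7a2 lay at -0.066, and Ndufa4, once assigned to complex I and now counted as a complex IV subunit, at -0.041. The signs of Cox4i1 and Ndufa4 turned with array weights (0.012 and 0.00719) and under repeated quantile normalization (0.014 and 0.0054).

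Some complex IV subunits have a second gene used in particular tissues or conditions, and these gave the largest single difference. Cox7a1, the form of subunit VIIa that heart, skeletal and smooth muscle and brown fat use, read 8.56, 8.79, 8.71 and 9.28 in wild type replicates 1 to 4 and 8.32, 7.78, 8.44 and 8.53 in knockout replicates 1 to 4. Wild type replicate 4 was the highest and knockout replicate 2 the lowest, while knockout replicate 4 lay within 0.1 of wild type replicate 1. The means were 8.84 ± 0.31 and 8.27 ± 0.34 (SD, n = 4 each), a 1.49-fold lower level with a difference of -0.57 ± 0.19 (SE, limma adjusted p = 0.188). Without wild type replicate 4 and knockout replicate 2 together the difference was -0.26, and with the mean of smooth muscle markers as a covariate it was -0.33 (limma adjusted p = 0.761). The paired form Cox7a2, expressed in most tissues, had no such gap, with 9.65, 9.83, 9.94 and 10.22 against 9.82, 9.76, 10.02 and 9.78.

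The other isoforms overlapped between the genotypes. Cox4i2, the form linked to low oxygen in lung and vessel walls, read 5.92, 5.92, 5.88 and 6.09 against 5.96, 5.45, 5.94 and 5.71 (difference -0.19, limma adjusted p = 0.524), with knockout replicate 2 as the low array, and its sign turned with the pancreatic covariate (0.020). Ndufa4l2, a hypoxia-induced relative of Ndufa4, had a difference of -0.12 that became 0.15 with the smooth muscle covariate. The striated muscle form Cox6a2 lay at 0.065, Cox8b at 0.026, and Cox7a2l, a factor that joins complexes III and IV into supercomplexes, at -0.024, a sign that turned with array weights (0.025). The signals of Cox7b2, Cox8b, Cox8c and Ndufa4l2 did not exceed the 95th percentile of the means of 1105 olfactory receptor genes (5.53), which serve smell and are a stand-in for genes that are off, and so give little information. The same held for Ndufb11 and Ndufs5 among the complex I genes.

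**Figure D2:**
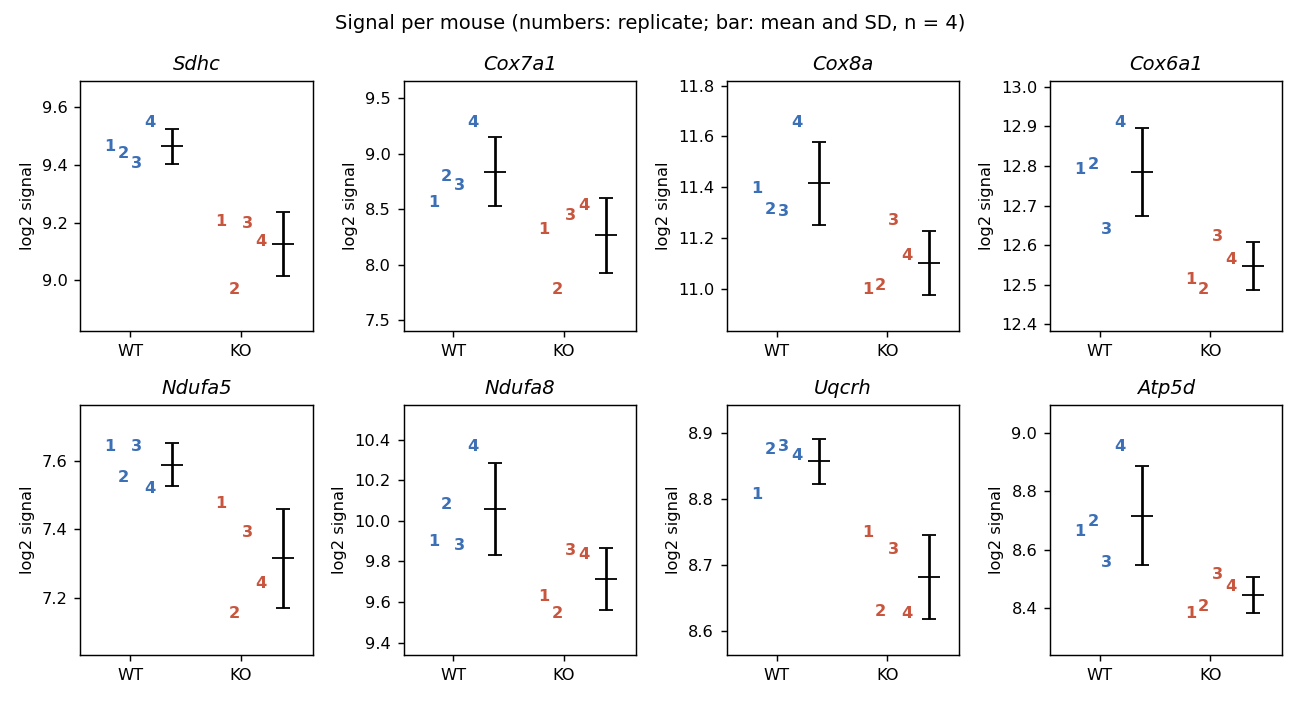
Array signal (log2) of 8 members in each wild type (WT, blue) and knockout (KO, red) mouse; digits are replicate numbers, bars the mean and SD (n = 4), and axes do not start at 0. Groups do not overlap in any of the 8 genes, the gap is narrow in most, and wild type replicate 4 is the highest array in 6 of them.

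Complex V makes ATP in a catalytic head (F1), driven by a central stalk that turns with a ring in the membrane. Of 17 measured genes 13 had a difference below 0 (median -0.063) and 3 were separated (17.65%, against 5.02% of all genes). Only 1 was lower at an unadjusted p under 0.05, a share of 5.88%, below the 8.10% of all genes. Among the 5 genes of the head, Atp5a1 and Atp5b, which build the catalytic hexamer, were nearly level, with differences of 0.011 (95% interval -0.16 to 0.18) and -0.052 (95% interval -0.22 to 0.11). Atp5d, the delta subunit of the central stalk, read 8.66, 8.70, 8.56 and 8.95 in wild type and 8.38, 8.41, 8.52 and 8.47 in knockout. Wild type replicate 3 lay only just above knockout replicate 3, and the difference was -0.27 ± 0.094 (SE, limma adjusted p = 0.212).

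A second probe set of Atp5d, with a lower signal, read 7.32, 7.93, 7.89 and 8.71 in wild type and 7.36, 7.50, 7.70 and 7.71 in knockout and overlapped. Atp5g2, one of 3 genes for the same c-ring protein, read 10.80, 10.90, 10.90 and 11.30 against 10.78, 10.67, 10.77 and 10.74 (difference -0.24, limma adjusted p = 0.356), while Atp5g3 lay at -0.13 and Atp5g1 at 0.020. Atp5h, part of the peripheral stalk that holds the head still, read 11.23, 11.25, 11.30 and 11.50 against 11.07, 11.12, 11.23 and 11.14 (difference -0.18, limma adjusted p = 0.355). Atp5j2, the f subunit of the membrane part, was the highest at 0.19 (limma adjusted p = 0.524). In all, 9 members had a second probe set, and in these 9 the second one also had a difference below 0, from -0.40 for Atp5d to -0.026 for Atp5e. The second probe set of Atp5h was at -0.037 and that of Cox5b at -0.16, against -0.18 and -0.012 for the probe sets used.

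The 8 Ndufaf genes encode factors that assemble complex I without remaining in it. All 8 had differences below 0, with a median of -0.10. Of them 0 were lower at an unadjusted p under 0.05 (against 8.10% of all genes) and 0 were separated (against 5.02%). Ndufaf8, a partner of Ndufaf5, read 7.45, 7.66, 7.57 and 7.83 in wild type and 7.46, 7.37, 7.39 and 7.50 in knockout, where wild type replicate 1 fell among the knockouts (difference -0.20, limma adjusted p = 0.366). Ndufaf3, an early factor, differed by -0.18 and Ndufaf2, which acts late, by -0.14. The pseudogenes Atp5c1-ps and Uqcrh-ps1, both below the olfactory receptor bound, had differences of 0.36 and 0.040.

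The members did not move evenly over the arrays of a genotype. Relative to the wild type mean, the median over the 90 members was -0.10, -0.030, -0.0042 and 0.14 in wild type replicates 1 to 4 and -0.043, -0.14, -0.034 and -0.13 in knockout replicates 1 to 4 (log2). The spread between wild type replicates 1 and 4 was therefore wider than the shift between the genotypes, and wild type replicate 1 lay below knockout replicates 1 and 3. Over the 10 common subunits of complex IV the wild type arrays spread widely, with -0.19, -0.069, -0.019 and 0.24 in wild type and -0.011, -0.14, 0.022 and -0.11 in knockout. Over the 4 genes of complex II they lay closer together, with -0.016, -0.020, 0.045 and 0.070 against -0.043, -0.18, -0.071 and -0.15.

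A like spread over the wild type arrays was seen in the genes of the cytosolic ribosome, a list added after the data were seen. Their median over 67 genes was -0.14, -0.038, -0.0097 and 0.21 in wild type and 0.030, 0.041, 0.015 and -0.017 in knockout, so wild type replicates 1 and 4 stood at the same ends while the knockouts lay near 0. Of these 67 ribosomal genes 2 were separated downwards (2.99%, against 5.02% of all genes) and 1 upwards (against 3.79% of all genes). Their median difference was 0.028. The proteasome, another list added then, had no such spread, with 0.014, -0.013, -0.021 and 0.019 in wild type, 0.037, 0.090, 0.085 and 0.0065 in knockout and 31 of 38 genes above 0. The part of this array pattern in the results on the members was not tested beyond leaving the arrays out. Without wild type replicate 4 the median over the members was -0.052 and 60 of 90 were below 0, against 54.1% of all genes, and without wild type replicate 1 the median was -0.12 and 75 were below 0, against 54.3% of all genes.

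**Figure D3:**
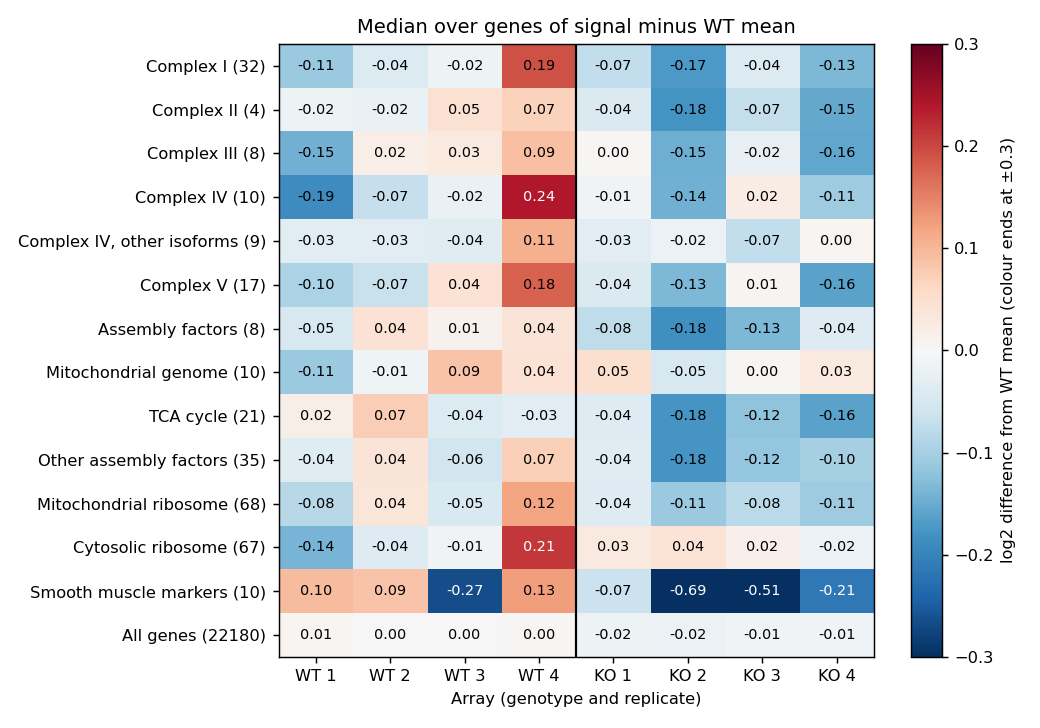
Median over the genes of each list (number of genes in brackets) of the signal minus the wild type mean, for each of the 8 arrays, in log2 units; blue is below and red above the wild type mean, and colours end at ±0.3. Complexes I to V are highest in wild type replicate 4, and their lowest array is knockout replicate 2 or 4 or, in complex IV, wild type replicate 1.

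The subunits encoded by the mitochondrial genome were level. Of the 10 measured, 4 had a difference below 0 (40%, against 53.9% of all genes), and the median was 0.017. In this list 0 were lower at an unadjusted p under 0.05 (against 8.10%) and 0 higher (against 6.22%). Likewise 0 were separated, against 5.02% downwards and 3.79% upwards. With 10 genes, a count of 0 is near each of these shares. ND4L and ND5, membrane subunits of complex I, had the smallest p values, with ND5 at 13.08, 13.14, 13.24 and 13.18 in wild type and 13.25, 13.14, 13.21 and 13.21 in knockout (difference 0.044, 95% interval -0.11 to 0.20, limma adjusted p = 0.842). ND4L differed by 0.053.

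Other nuclear genes of the mitochondrion were described in the same way, and 0 of them passed the adjusted limma test. Of 21 genes of the citric acid cycle and pyruvate dehydrogenase, 18 had a difference below 0, with a median of -0.12. In this list 5 were lower at an unadjusted p under 0.05 (23.8%, against 8.10% of all genes) and 6 were separated (28.6%, against 5.02%). Cs, citrate synthase, read 11.30, 11.41, 11.21 and 11.28 in wild type and 10.99, 10.96, 11.12 and 11.00 in knockout, without overlap and with a difference of -0.28 (limma adjusted p = 0.130). In Cs wild type replicate 4 was not the highest array, unlike in most members. Pdk2, a kinase that restrains pyruvate dehydrogenase, read 8.06, 8.54, 7.93 and 8.51 against 7.79, 7.45, 7.59 and 7.80 (difference -0.60, limma adjusted p = 0.106).

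The remaining lists had smaller shares of separated genes. Of 35 other assembly factors 29 were below 0 (median -0.10). In this list 7 were lower at an unadjusted p under 0.05 (20%, against 8.10% of all genes) and 5 were separated (14.3%, against 5.02%). Uqcc3, a complex III factor, lay at -0.38 and Cox14, a complex IV factor, at -0.25 (limma adjusted p = 0.115 and 0.146). Of 20 electron carriers and shuttles 13 were below 0 and 3 were lower at an unadjusted p under 0.05 (15%, against 8.10% of all genes). The 2 separated genes (10%, against 5.02%) were the phosphate carrier gene Slc25a3, which feeds ATP synthase, at -0.20 and Etfdh, which passes electrons from fatty acid oxidation to ubiquinone, at -0.22. Of 20 regulators of mitochondrial biogenesis 12 were below 0 and 3 were lower at an unadjusted p under 0.05 (15%, against 8.10% of all genes). The 2 separated genes (10%, against 5.02%) were Tfb1m, which modifies mitochondrial ribosomal RNA, at -0.32 and Ssbp1, which binds mitochondrial DNA, at -0.19. Of 19 outer membrane and import genes 10 were below 0 (52.6%, against 53.9% of all genes). In this list 0 were lower at an unadjusted p under 0.05 (against 8.10%) and 1 was separated (5.26%, against 5.02%). The median was -0.030, with the channel gene Vdac3 at -0.14 and the import gene Tomm7 at -0.16. The mitochondrial ribosome, a list added after the data were seen, had 59 of 68 genes below 0, a median of -0.078 and 2 separated (2.94%, against 5.02% of all genes).

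**Figure D4:**
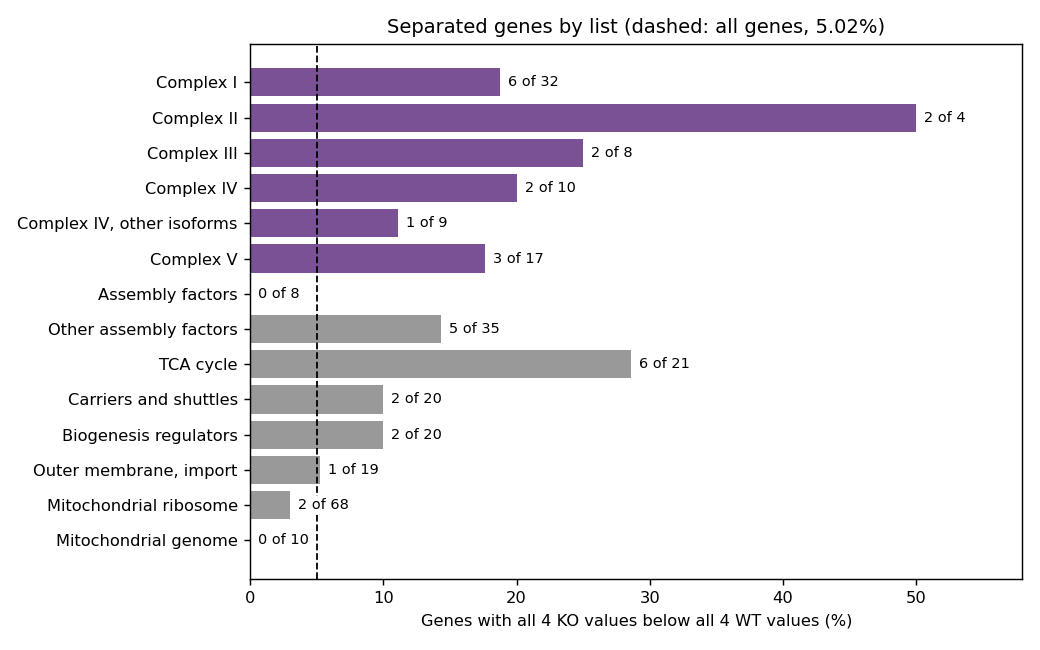
Share of genes in each list whose 4 knockout values all lie below the 4 wild type values; purple bars are the groups of members, grey bars other mitochondrial lists, labels give the counts, and the dashed line is the share over all genes (5.02%). Each of the 5 complexes lies above the line, with small counts behind every bar, while the mitochondrial genome list has 0 of 10.

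Markers of other cells moved between the same samples. All 10 smooth muscle markers lay lower in the knockout (median -0.35). Of them 6 were lower at an unadjusted p under 0.05 (60%, against 8.10% of all genes) and 0 at the adjusted threshold. Their medians relative to wild type were 0.10, 0.086, -0.27 and 0.13 in wild type and -0.065, -0.69, -0.51 and -0.21 in knockout. Actg2, an enteric smooth muscle actin, differed by -0.62 and Mylk, a myosin kinase, by -0.29. Knockout replicate 2 was the lowest array both for these markers and for Cox7a1, while knockout replicate 3, also low for the markers, read 8.44 in Cox7a1, above knockout replicates 1 and 2. Of 10 striated muscle markers 7 were below 0, among them Myh2 at -0.46 and Ckm at -0.38, with medians from -0.30 to 0.0052 in the knockouts.

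Of 10 colonocyte markers 9 were below 0 and 2 fell at the adjusted threshold, the carbonic anhydrase gene Car4 by 0.84 and the sugar phosphate transporter gene Slc37a2 by 1.81 on the log2 scale (limma adjusted p = 0.0401 and 0.0478). Car4 read 11.49, 11.77, 11.59 and 11.37 in wild type and 10.55, 10.54, 11.18 and 10.57 in knockout. Without single arrays the call held in 1 of 8 fits for Car4 (adjusted p up to 0.151) and in 2 of 8 for Slc37a2 (up to 0.154), and both calls were lost with the replicate block (adjusted p = 0.0730 and 0.138) and with either covariate. The median colonocyte marker stood at -0.014, 0.12, 0.013 and -0.13 in wild type and -0.12, -0.24, -0.40 and -0.15 in knockout. Of 10 neutrophil markers 9 were above 0 and 8 rose at the adjusted threshold, with S100a9 and S100a8, the calprotectin subunits, at 3.11 and 3.20. Ly6g alone was below 0, at -0.36 (limma adjusted p = 0.621). The list median lay 1.97 to 3.23 above wild type in the knockouts. Of 7 B and plasma cell markers 5 were above 0 and 2 below. The complement receptor gene Cr2 rose by 1.57 (limma adjusted p = 0.0440), a call that held in 1 of 8 fits without single arrays and was lost with the trended variance (0.0632), the replicate block (0.115) and either covariate. Bank1 lay at 1.33 (limma adjusted p = 0.0584), while the plasma cell genes Jchain and Mzb1, named after their values were seen, lay at -1.31 and -0.13 (limma adjusted p = 0.158 and 0.845). The B and plasma list medians were 0.72, 0.16, -0.79 and 0.21 in wild type replicates 1 to 4 and 0.52, 1.07, 1.31 and 0.98 in knockout replicates 1 to 4. Wild type replicate 1 thus lay above knockout replicate 1. The 8 pancreatic genes, with Cel at 5.47 and Cpa1 at 5.38, differed between knockouts as described above.

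Of 7 pericyte markers all had differences above 0, from 0.0083 for Higd1b to 0.68 for Kcnj8, with Abcc9 at 0.51. Their median was 0.16, and 0 were separated, against 5.02% of all genes downwards and 3.79% upwards. Of 6 brown fat markers 5 were below 0, with Dio2 at 0.80 and Cidea at -0.27, and the red cell marker Slc4a1, alone of 6 listed to be measured, lay at -0.10. Beyond the smooth muscle and pancreatic covariates, the part of these cell types in the results on the members was not tested. With the smooth muscle covariate 1 member was lower at an unadjusted p (1.11%, against 4.24% of all genes) and 67 of 90 were below 0, against 54.6% of all genes. With the pancreatic covariate 0 were lower (0%, against 2.84% of all genes) and 59 were below 0, against 52.6% of all genes. The medians of complexes I, IV and V were then -0.034, 0.031 and 0.013, and the pancreatic covariate itself differed between the genotypes. With knockout replicate 3 alone, which had no pancreatic signal, against wild type, 59 of 90 members, against 52.5% of all genes, lay below 0 and 0 members were lower at an unadjusted p, against 2.78% of all genes. The median over all members was then -0.034, and those of complexes IV and V were 0.022 and 0.0077.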

How the data were processed

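Total RNA of 8 mice was hybridised to 1 array each, labelled from 200 ng with the WT PLUS kit per the labels' protocols. The deposited log2 values were made by the authors with RMA in Affymetrix Expression Console 1.4, per the submitters' processing notes, and were used without further normalization. The sources used here name no scan batch. Arrays give no counts, so their number limits the precision. The labels name separate mice.

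Of 41345 probe sets, 23521 carried 1 symbol, 1814 several and 16010 none in the platform annotation. Per gene the single-symbol probe set with the highest mean was kept (22180 genes, no filter on dim ones). Of these, 21994 were found by Entrez identifier in the reference table (GRCm38.p6). The test was limma 3.58.1 under R 4.3.3, a plain model of genotype with moderated variance and two-sided p-values, adjusted by Benjamini-Hochberg across the 22180 genes.

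Named genes were the called members, the 3 smallest p of each group, fixed isoforms and, from the other lists, 2 genes or all called. Lowest and highest members of a range and members with motifs were also named. Members and lists were chosen with earlier results of these data known. The fit was checked on simulated data. It recovered 1 of 50 genes at a log2 shift of 0.25, 26 at 0.5, 45 at 1 and 49 at 2. No arrays were identical. Alternatives changed the variance model, array weights, scaling, dim genes, probe sets, covariates, the replicate block and the arrays used.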

Additional observations from a re-analysis of the deposited data

Results flagged for a closer look

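In 3 of 58 groups of 4 arrays checked over 29 genes (Trim58 and 28 named members) 1 array lay far from the other 3, and chance alone gives about 1 in 20 such groups. Ndufa7 read 7.40 in knockout replicate 2, against 7.66 in the nearest knockout. Cox4i1 read 9.66 in knockout replicate 4, with the nearest knockout at 9.87. Cox6a2 read 5.78 in wild type replicate 3, with the next wild type array at 5.69.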

How the results depend on the processing

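The number of members past the adjusted threshold was 0 in every alternative run. The members' median stayed below 0 in each of them, from -0.12 without wild type replicate 1 to -0.026 with the pancreatic covariate, and between -0.12 and -0.052 without single arrays. The median of complex IV ranged from -0.13 to 0.055 without single arrays and was 0.031 with the pancreatic covariate, where that of complex V was 0.013. Members lower at an unadjusted p numbered 15 in the fit reported (against 8.10% of all genes). They numbered 6 to 19 without single arrays (against 5.57% to 9.16% of all genes). With the pancreatic covariate 0 were lower (against 2.84%), and with the smooth muscle covariate 1 (against 4.24%). Without wild type replicate 4 and knockout replicate 2 together 3 were lower (against 5.53%). That fit and the fit of knockout replicate 3 alone against wild type were chosen after the data were seen. Members higher at an unadjusted p numbered 1 as reported (against 6.22% of all genes) and 0 to 1 without single arrays. They numbered 0 without dim genes (the filter on low signals), with the replicate block and with the smooth muscle covariate. They also numbered 0 without wild type replicate 4 and knockout replicate 2 together, and 2 with the pancreatic covariate. Separated members numbered 8 after repeated quantile normalization (against 5.02% of all genes) and 16 to 24 without single arrays (against 5.96% to 8.77% of all genes). Leaving out an array cannot lower such a count, for the members or for all genes. The range without single arrays therefore does not show how stable the count is. With the replicate number as a block 12 members were lower at an unadjusted p (13.3%, against 7.62% of all genes). Over all genes 8 were then called lower and 56 higher at the adjusted threshold. Same-numbered mice did not deviate together (correlations -0.16 to 0.052).

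Over all genes the adjusted counts, 41 lower and 87 higher as reported, were 64 lower with the trended variance, 69 with array weights and 80 without dim genes. They were 0 lower and 2 higher with the pancreatic covariate, 0 and 3 with smooth muscle, 0 and 14 with knockout replicate 3 alone, 0 and 8 without wild type replicate 4 and knockout replicate 2, and 1 to 80 lower and 24 to 172 higher without single arrays. Causes were not tested. The median of import genes was 0.039 with the pancreatic covariate and 0.038 with knockout replicate 3 alone, and that of carriers and shuttles -0.11 and -0.13. Some differences turned sign. With the pancreatic covariate these were Cox4i2 0.020, Sdha 0.059, Cox4i1 0.028, Cox7a2 0.11, Cox8b -0.012, Slc4a1 0.14 and Dio2 -0.057. With smooth muscle these were Ndufa4l2 0.15, Cox6a2 -0.049 and Ndufa4 0.034. After repeated quantile normalization Sdha was 0.00596, Cox4i1 0.014 and Ndufa4 0.0054. With array weights Cox4i1 was 0.012, Cox7a2l 0.025 and Ndufa4 0.00719. With knockout replicate 3 alone Sdha was 0.050, Cox4i1 0.023, Cox7a2 0.11, Slc4a1 0.16 and Dio2 -0.16. Without wild type replicate 4 and knockout replicate 2, Cox4i1 was 0.036, Cox7a2 0.065, Cox7a2l 0.064 and Ndufa4 0.071. Without single arrays Trim58 ranged from -0.18 to 0.0029, Sdha from -0.10 to 0.041, Cox4i1 from -0.081 to 0.060, Cox6a2 from -0.017 to 0.13, Cox7a2 from -0.15 to 0.037, Cox7a2l from -0.092 to 0.067, Cox8b from -0.092 to 0.10 and Ndufa4 from -0.11 to 0.051. Array number and spread limit what these data can resolve: standard errors of the members ran from 0.070 to 0.21 (log2).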
